A study of Mus musculus with 18 samples.

Results

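Notch signalling passes between neighbouring cells that touch each other. A ligand of the Delta-like or Jagged family on one cell binds a Notch receptor on the next, ADAM10 and gamma-secretase cut the receptor, and its freed intracellular part joins RBPJ in the nucleus to switch on repressor genes of the Hes and Hey families. In vessels the pathway is known for restraining VEGF-driven sprouting through DLL4 and NOTCH1, and in mural cells, the pericytes and smooth muscle cells that wrap vessels, for the activity of NOTCH3 and JAG1. The genes described here are the 4 receptors Notch1, Notch2, Notch3 and Notch4, the 4 ligands Dll1, Dll4, Jag1 and Jag2, and the 2 targets Hey1 and Heyl, which were chosen by name as core members of the pathway. They are 10 of the 23238 gene symbols in the count tables, and each stood on 1 row.

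RNA was counted in 18 libraries of cells sorted by flow cytometry from the small intestine of adult C57BL/6J mice. PDGFRb+ intestinal stromal cells (IntSCs) and endothelial cells of the lacteals, the lymphatic capillaries of the villi (LECs), came from the same pair of genotypes. WT libraries (6 IntSC, 4 LEC) were labelled PDGFRb+-CreERT2-Tomato+, so these controls carried the tamoxifen-inducible Pdgfrb Cre and its reporter without floxed Lats alleles. KO libraries (5 IntSC, 3 LEC) carried PDGFRb+-CreERT2-Tomato+ together with Lats1f/f and Lats2 f/f, so that the same Cre removes Lats1 and Lats2, the kinases that hold back YAP and TAZ. All groups share the Cre and the reporter. The Pdgfrb promoter drives the Cre in fibroblasts, smooth muscle cells and pericytes, so LATS1/2 loss was directed at the stroma and the LECs are its neighbours. In the study's protocol, CD31 beads were used to deplete endothelial cells before the IntSC sort. Reads of blood endothelial markers remained in the IntSC libraries, as given below.

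Total counts ranged from 5361250 to 10549233 per library. The sorted identities followed most of their markers. The LEC regulator Prox1 was between 33.3 and 114 CPM in LEC libraries and at most 0.172 CPM in IntSC libraries. Pdgfrb was between 215 and 679 CPM in WT IntSC libraries and between 694 and 1187 CPM in KO IntSC libraries. In LEC libraries it was between 0.496 and 69.1 CPM. Of 8 LEC markers, 7 were higher in LECs in each genotype (edgeR adjusted p under 0.05). The exception, Pdpn, showed no detected difference in WT (adjusted p = 0.457) and was lower in KO LECs (adjusted p = 0.0192). Of 7 pericyte markers, Kcnj8 was higher in LECs in both genotypes, while 4 were lower in WT and 2 in KO. No fall of the targeted genes was detected in IntSC libraries labelled KO, where the log2 fold change was -0.12 ± 0.67 (SE) for Lats1 and 0.65 ± 0.23 for Lats2 (edgeR adjusted p = 0.987 and 0.252), so the counts did not check the labels, and KO below means the libraries labelled KO. Nothing in the labels says which libraries came from separate animals, so p-values measure the spread between these libraries. Values are CPM, read counts scaled to a common library size, printed for each library before any test. Log2 fold changes are given ± SE, with p-values from edgeR's quasi-likelihood test adjusted over all genes tested, and a gene is called at an adjusted p under 0.05.

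The first comparison asked which compartment, IntSCs or LECs, carried which Notch gene in WT. LECs were rich in Notch1 and Dll4, whereas IntSCs were rich in Notch3. Of the 9 genes that passed the low-count filter, these 3 were called and 6 were not, and the background in this comparison was 22.6% of 12203 genes tested. The same 3 genes were those whose groups did not overlap, against 21.1% of all genes tested. The median log2 fold change of LEC against IntSC was 0.99 over the 9 genes and -0.04 over all genes tested. Jag2 was too low in WT libraries to be tested. All 9 blood endothelial markers listed had reads in WT IntSCs. Of these, Cd34 and Ly6c1 were called lower in LECs and Emcn higher. Ly6c1 had a mean of 113 CPM in WT IntSCs and 24.0 CPM in WT LECs. The part of blood endothelial RNA in the IntSC levels of the Notch genes was not tested.

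Notch1, a receptor of most endothelia, had values of 236, 192, 106 and 233 CPM in WT LECs 1 to 4, and of 5.50, 21.2 and 32.4 CPM at the lowest, median and highest of the WT IntSC libraries. Every LEC library was thus above every IntSC library. LECs were higher by a log2 fold change of 3.24 ± 0.42 (adjusted p = 3.34e-05), with a mean level 9.42 times as high.

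Notch3, the receptor of mural cells, had the opposite pattern. WT LECs 1 to 4 held 7.13, 1.97, 0.562 and 1.80 CPM, against 107, 156 and 194 CPM at the lowest, median and highest of the WT IntSCs. The lowest IntSC library was far above the highest LEC library. LEC against IntSC gave a log2 fold change of -5.69 ± 0.61 (adjusted p = 5.77e-06), a mean level 52.3 times as high in IntSCs, and without WT LEC 1 it was -6.69. WT LEC 1, with the most Notch3 of the WT LECs, also had the highest summed level of the 7 fibroblast markers, 1969 CPM against 590 to 634 CPM in the other WT LEC libraries, and the highest Pdgfrb, 69.1 CPM. The part of stromal RNA in the Notch3 reads of LECs was not tested.

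Dll4, the ligand of endothelial tip cells, had values of 37.7, 65.9, 149 and 182 CPM in WT LECs 1 to 4, and of 0.337, 7.75 and 15.7 CPM at the lowest, median and highest of the WT IntSC libraries. The groups did not overlap, although Dll4 varied widely within LECs. Its log2 fold change of LEC against IntSC was 3.92 ± 0.81 (adjusted p = 0.00293), a mean level 15.2 times as high in LECs. Within IntSCs it was near 0 in WT IntSC 4 and WT IntSC 6 (0.337 and 0.422 CPM) and between 6.39 and 15.7 CPM in the other 4 WT libraries. Part of the Dll4 gene, 414 bases, overlaps the lncRNA gene Gm14207 in the RefSeq annotation, and no source used here says whether the counting used strand.

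The remaining receptors and ligands had overlapping levels in WT LECs and WT IntSCs. Notch2 was 3.19 to 28.9 CPM in LECs and 5.47 to 18.03 CPM in IntSCs (log2 fold change 0.16 ± 0.81, adjusted p = 0.927). Notch4, a receptor best known from blood endothelium, was 10.6 to 52.6 CPM in LECs and 15.8 to 23.7 CPM in IntSCs (log2 fold change 0.41 ± 0.52, adjusted p = 0.660). Neither receptor differed beyond the spread between libraries. The ligand Jag1 was 9.03 to 35.9 CPM in LECs and 20.7 to 70.8 CPM in IntSCs (log2 fold change -0.88 ± 0.51, adjusted p = 0.260). Dll1 was 1.33 to 17.0 CPM in LECs and 0 to 7.19 CPM in IntSCs (log2 fold change 1.26 ± 1.19, adjusted p = 0.530). Jag2 had reads in only 1 of 4 WT LEC libraries, 0.750 CPM in WT LEC 3, and was 0 to 6.91 CPM in WT IntSCs. A count of 0 allows up to 3 reads in a library, which covers counting error only.

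The targets did not separate the compartments either. Hey1, a repressor used in many endothelia, had values of 7.13, 52.6, 89.1 and 43.5 CPM in WT LECs 1 to 4, and of 4.70, 20.7 and 43.3 CPM at the lowest, median and highest of the WT IntSC libraries. Most LEC libraries were above the IntSC libraries, but WT LEC 1 was among the lowest of all. For Hey1 the log2 fold change was 1.17 ± 0.66 (adjusted p = 0.247). Heyl, a related repressor often linked to mural cells, was 1.78 to 17.2 CPM in LECs and 0 to 11.4 CPM in IntSCs, with a log2 fold change of 0.99 ± 1.17 (adjusted p = 0.635).

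**Figure D1:**
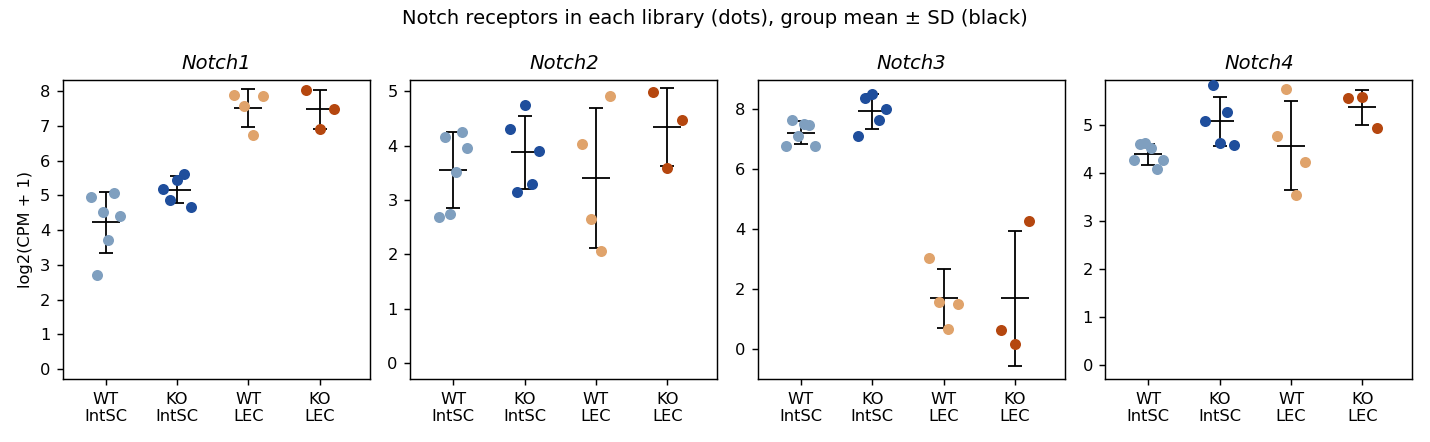
Level of the 4 receptors, log2(CPM + 1), in each library (dots) of the 6 WT IntSC, 5 KO IntSC, 4 WT LEC and 3 KO LEC samples. Black bars are the mean ± SD of the log2 values. Notch1 is high in every LEC library and Notch3 in every IntSC library, and KO LEC 3 stands above the other KO LEC libraries for Notch3 (18.2 CPM).

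Because transcripts differ in length, levels of different genes were compared as CPM per kilobase of the longest coding transcript. The labels name a Lexogen Quant-Seq kit, and whether reads came only from transcript ends was not settled here. If they did, division by length would not be apt and this order could change. In WT IntSCs the mean was 18.7 ± 4.77 CPM per kilobase for Notch3 (SD, n = 6), 8.84 ± 6.19 for Hey1 and 6.83 ± 3.33 for Jag1, and the other 7 genes lay between 0.568 for Jag2 and 3.06 for Notch4. Notch3 and Hey1 overlapped between libraries, whereas every Notch3 value was above every Jag1 value. In WT LECs the mean was 29.0 ± 18.2 CPM per kilobase for Dll4 (SD, n = 4), 20.2 ± 6.39 for Notch1 and 19.8 ± 13.9 for Hey1, 3 genes whose ranges overlapped. Without division by length, Notch1 led in WT LECs with a mean of 192 CPM, against 109 CPM for Dll4. Notch4 followed with 4.06 ± 2.79 CPM per kilobase, and all its libraries were below the lowest Notch1 library. Below Notch4 came Jag1, Dll1, Heyl, Notch2, Notch3 and Jag2, from 3.69 down to 0.0367 CPM per kilobase, and neighbours in this order overlapped.

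As shares of reads, which can follow transcript length as well as abundance, Notch1 made up 82.5% ± 4.86 (SD, n = 4) of the receptor reads of WT LECs, and Notch3 73.3% ± 6.22 (SD, n = 6) of those of WT IntSCs. Dll4 made up 76.1% ± 8.57 of the ligand reads of WT LECs, and Jag1 71.9% ± 11.3 of those of WT IntSCs. In KO libraries the leading genes were again the same, with Notch3 at 73.2% ± 8.76 (SD, n = 5) of receptor reads and Jag1 at 80.2% ± 4.01 of ligand reads in IntSCs, and Notch1 at 72.3% ± 4.87 (SD, n = 3) and Dll4 at 82.7% ± 18.2 in LECs.

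**Figure D2:**
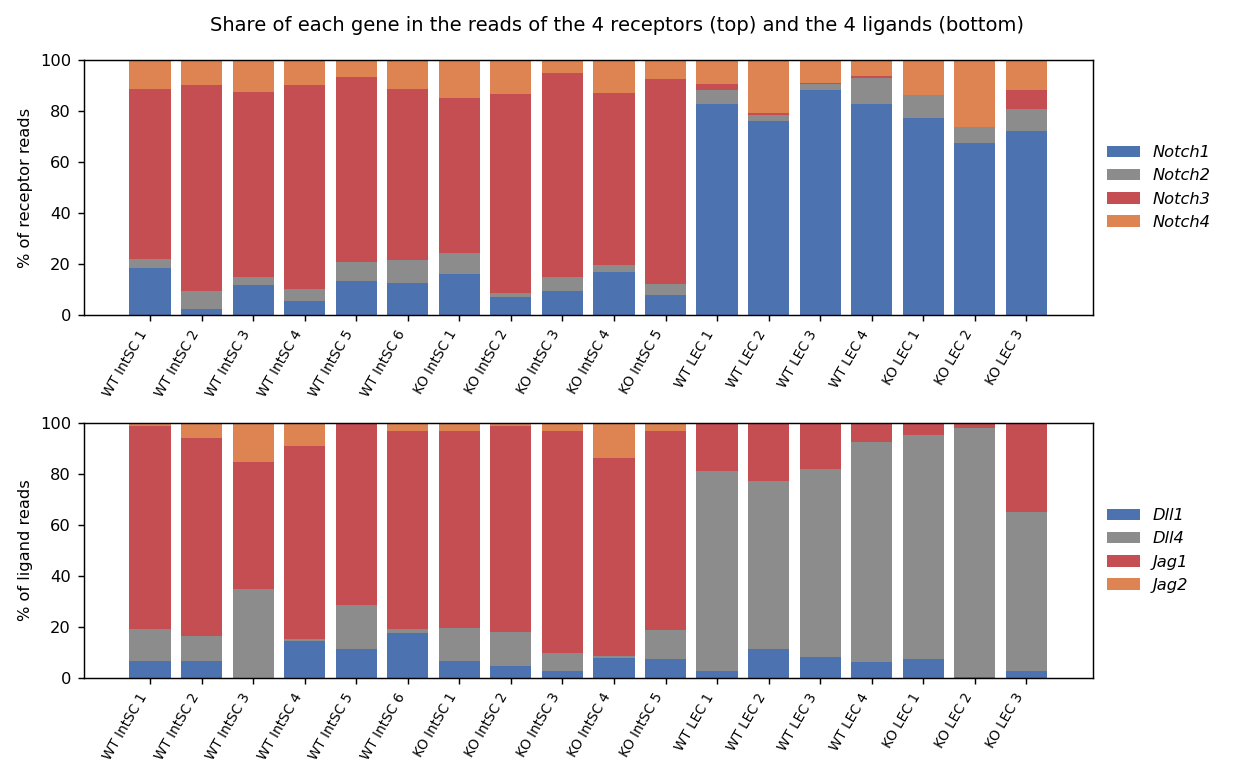
Share of each gene, in percent, among the reads of the 4 receptors (top) and of the 4 ligands (bottom), 1 bar per library. Notch3 and Jag1 fill most of every IntSC bar except the Jag1 share of WT IntSC 3 (49.5%), and Notch1 and Dll4 most of every LEC bar, with a Jag1 share of 34.7% in KO LEC 3.

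The same contrast in the KO libraries asked whether the compartments were still apart. The median of all genes was -0.21 on the log2 scale here, and changes are read against it. Notch1 (2.37 ± 0.33, adjusted p = 5.82e-04) and Dll4 (3.69 ± 0.62, adjusted p = 0.00193) were higher in KO LECs, and Notch3 was lower (-5.33 ± 1.25, adjusted p = 0.0108). The size for Notch3 rested on single libraries, at -9.62 without KO LEC 3 and -4.74 without KO LEC 2, and it was called in both fits. Jag2 was also lower in KO LECs (adjusted p = 0.0191), with no read in any of the 3 KO LEC libraries and 2.48, 1.23, 4.44, 18.2 and 3.05 CPM in KO IntSC libraries 1 to 5. An edgeR fit with replicate number as a block did not call Jag2 (adjusted p = 0.225). Set against a floor of 3 counts per library, the mean of Jag2 was at least 16.029-fold higher in KO IntSCs, and at least 7.64-fold higher when KO IntSC 4 was left out. These 4 of the 10 genes were called and were also the 4 without overlap, beside 25.9% of 12758 genes called and 32.3% without overlap.

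The other 6 genes were not called between KO LECs and KO IntSCs, with adjusted p between 0.116 for Hey1 and 0.975 for Dll1. Jag1 had a log2 fold change of -1.78 ± 0.91 (adjusted p = 0.188), and this rested on KO LEC 3, without which it was -4.27 (adjusted p = 0.00148). In the fit without KO LEC 3, Jag1 joined the called genes. WT and KO contrasts use separate libraries, and the difference between them is the interaction given further below.

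The second question was what LATS1/2 deletion did to the pathway in the targeted stroma. Jag1 rose in IntSC libraries labelled KO. The other 9 genes were not called, although the estimates of all 10 were above 0. The share of genes called was 1.47% of the 12421 tested, and 0.853% were called as higher, against 1 of 10 here. The median log2 fold change was 0.76 over the 10 genes and 0.0027 over all genes tested, of which 6239 had an estimate above 0. None of the 10 was without overlap between the groups, against 2.83% of all genes tested.

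Jag1 encodes a ligand that mural and endothelial cells use to signal to their neighbours. It was 40.0, 70.8, 22.2, 30.5, 46.0 and 20.7 CPM in WT IntSC libraries 1 to 6, and 63.6, 87.0, 122, 102 and 78.2 CPM in KO IntSC libraries 1 to 5. The KO libraries were higher as a group, but WT IntSC 2 lay above KO IntSC 1. The log2 fold change was 1.24 ± 0.30 (adjusted p = 0.0390), a mean 2.36 times as high. The call was close to the threshold: with each library left out in turn it held in 1 of 11 fits, the one without WT IntSC 2 (1.51, adjusted p = 0.00708), and the other 10 gave 1.11 to 1.35 with adjusted p between 0.0514 and 0.135. A joint fit of the 4 groups gave 1.24 for Jag1, with an adjusted p of 0.911.

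**Figure D3:**
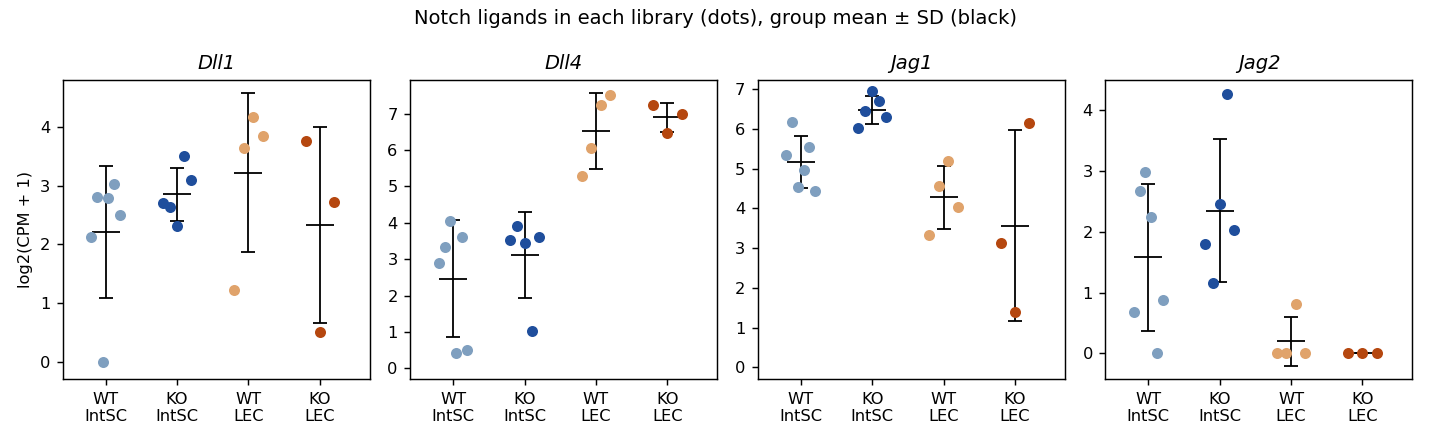
Level of the 4 ligands, log2(CPM + 1), in each library (dots) of the 4 groups, with the mean ± SD in black. Jag1 is 63.6 to 122 CPM in the KO IntSC libraries and 20.7 to 70.8 CPM in WT, Dll4 is high in LECs, and KO LEC 3 stands out for Jag1 (70.2 CPM).

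Among the receptors, Notch3 came closest to the threshold. It was 107, 194, 136, 180, 175 and 108 CPM in WT IntSC libraries 1 to 6 and 135, 322, 361, 194 and 252 CPM in KO IntSC libraries 1 to 5. KO IntSC 1 lay within the WT range, and the other KO libraries reached or passed its top. For Notch3 this gave a log2 fold change of 0.75 ± 0.24 (adjusted p = 0.149). Notch4 was 15.8 to 23.7 CPM in WT and 32.6, 55.3, 23.7, 37.6 and 22.7 CPM in KO IntSCs, so that 3 KO libraries were above the WT range (log2 fold change 0.77 ± 0.33, adjusted p = 0.406). Notch1 was 5.50 to 32.4 CPM in WT and 24.6 to 48.5 CPM in KO (0.82 ± 0.40, adjusted p = 0.512). For Notch2 the values were 5.47 to 18.03 CPM and 7.81 to 25.7 CPM (0.34 ± 0.53, adjusted p = 0.939).

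The remaining ligands were scarce in IntSCs. Dll1 was 0 to 7.19 CPM in WT and 3.96 to 10.3 CPM in KO, with a log2 fold change of 0.53 ± 0.96 (adjusted p = 0.948). Dll4 was 0.337 to 15.7 CPM in WT and 1.04 to 14.1 CPM in KO, with a log2 fold change of 0.38 ± 0.88 (adjusted p = 0.968). The KO library with the least Dll4, KO IntSC 4, held the most Jag2, 18.2 CPM against 1.23 to 4.44 CPM in the other KO IntSC libraries. The log2 fold change of Jag2 was 1.02 ± 1.16 (adjusted p = 0.902), and without KO IntSC 4 it was -0.055. Summed over the 4 ligands, the WT mean was 52.9 CPM (SD 22.5, n = 6) and the KO mean 112 CPM (SD 23.8, n = 5), most of it Jag1.

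Neither Hey target was called in IntSCs. Hey1 was 26.5, 43.3, 7.45, 15.0, 4.70 and 31.6 CPM in WT IntSC libraries 1 to 6 and 28.1, 54.5, 31.0, 15.96 and 25.4 CPM in KO IntSC libraries 1 to 5. The ranges overlapped over most of their length, and the log2 fold change was 0.53 ± 0.48 (adjusted p = 0.855). Heyl had no read in WT IntSC 2, was 2.87 to 11.4 CPM in the other 5 WT libraries, and was 13.2, 9.86, 22.7, 2.09 and 23.5 CPM in KO. It had the largest estimate of the 10 genes, 1.39 ± 0.83, with a 95% interval from -0.24 to 3.02 (adjusted p = 0.656).

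The make-up of the IntSC libraries differed between genotypes as well. In bulk libraries, fewer cells of a type and less RNA per cell cannot be told apart. Pdgfrb, whose promoter drives the Cre, was 215 to 679 CPM in WT and 694 to 1187 CPM in KO IntSCs. The 9 blood endothelial markers had summed levels of 1510 to 3067 CPM in WT and 1282 to 2148 CPM in KO, with all 9 detected in both. Among them Ly6c1 rose (0.87 ± 0.21, adjusted p = 0.0390) and Cd34, which fibroblasts also express, fell by 1.05 on the log2 scale (SE 0.20, adjusted p = 0.00688). Without Cd34 the sums were 457 to 652 CPM in WT and 570 to 1288 CPM in KO. The summed smooth muscle markers were 1037 to 1802 CPM in WT and 1252 to 2336 CPM in KO, with none of 6 called, and the summed pericyte markers 235 to 417 CPM and 184 to 330 CPM, with Kcnj8 lower among 7 (-1.41 ± 0.35, adjusted p = 0.0472). The summed fibroblast markers were 10411 to 15539.8 CPM in WT and 6731 to 11369.6 CPM in KO, with Col3a1 lower among 7 (-0.92 ± 0.23, adjusted p = 0.0438). The summed epithelial markers were 0 to 122 CPM in WT (median 6.64) and 59.2 to 156 CPM in KO (median 94.8), with Krt19 and Lyz1 higher among 8 tested. The part of these shifts in the levels of Jag1, Notch3 and Notch4 was not tested.

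The promoters of 4 genes are shown because their genes carry calls: Jag1 between genotypes in IntSCs, and Notch1, Notch3 and Dll4 between compartments of both genotypes. Jag2, called between KO compartments, is not shown because its window in the promoter table lies inside the annotated gene. Each is the 250 bases before the start site of the RefSeq promoter table (GRCm38.p6, the assembly of mm10), read 5′ to 3′ on the gene's strand, and the Notch3 window runs 6 bases into the annotated gene. The windows are chr2:137116521-137116770 on the minus strand for Jag1, chr2:26503823-26504072 on the minus strand for Notch1, chr17:32166891-32167140 on the minus strand for Notch3 and chr2:119325534-119325783 on the plus strand for Dll4. Capitals mark the word GGAAT or its reverse complement ATTCC, the core that TEAD factors, the DNA-binding partners of YAP and TAZ, are known to bind.

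Jag1: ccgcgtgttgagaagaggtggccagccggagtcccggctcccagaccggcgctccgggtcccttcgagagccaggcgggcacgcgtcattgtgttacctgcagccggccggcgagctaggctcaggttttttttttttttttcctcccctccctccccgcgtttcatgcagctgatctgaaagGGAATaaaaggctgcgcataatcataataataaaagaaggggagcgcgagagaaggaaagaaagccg
Notch1: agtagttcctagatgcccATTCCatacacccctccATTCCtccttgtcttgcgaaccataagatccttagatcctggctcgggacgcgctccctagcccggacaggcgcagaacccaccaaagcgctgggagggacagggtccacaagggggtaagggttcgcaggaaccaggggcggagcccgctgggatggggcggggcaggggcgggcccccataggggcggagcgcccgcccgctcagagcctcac
Notch3: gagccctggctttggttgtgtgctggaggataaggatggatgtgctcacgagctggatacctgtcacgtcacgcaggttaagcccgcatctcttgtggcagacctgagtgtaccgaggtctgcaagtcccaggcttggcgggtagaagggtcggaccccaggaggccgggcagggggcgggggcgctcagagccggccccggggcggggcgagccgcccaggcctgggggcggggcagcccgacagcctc
Dll4: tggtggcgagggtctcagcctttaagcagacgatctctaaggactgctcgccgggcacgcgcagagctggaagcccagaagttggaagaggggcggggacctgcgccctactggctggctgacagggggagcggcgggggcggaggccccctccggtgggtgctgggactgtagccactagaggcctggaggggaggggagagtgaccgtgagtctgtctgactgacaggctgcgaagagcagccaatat

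The TEAD word was present 2 times in the Notch1 window, starting 232 and 215 bases before the start site, and 1 time in the Jag1 window, 67 bases before it. The Notch3 and Dll4 windows did not hold it. Of the 8 genes with a promoter in the table, 4 held the word (Notch1, Notch4, Dll1 in 1 of its 2 windows, and Jag1), and so did 34.2% of 32851 promoters of this length on either strand. The longer word GGAATG, or CATTCC, which contains it, was in the Notch1 and Notch4 windows and in 12.6% of all promoters. The RBPJ word GTGGGAA, or its reverse complement TTCCCAC, was in none of the windows of these 8 genes and in 5.42% of all promoters. These matches describe letters in a window and not binding.

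The third comparison looked at LECs beside deleted stroma. None of the 9 Notch genes tested was called or had an unadjusted p under 0.05, and each adjusted p was 0.9999. By edgeR 7 of 10639 genes, 0.0658%, were called in this comparison, with 837 at an unadjusted p under 0.05. None of the 9 was without overlap, against 9.93% of all genes tested. DESeq2 and limma-voom called none of the 9 either. Their median log2 fold change was 0.44, and -0.03 over all genes tested.

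Notch1 and Dll4, the genes of the LEC side, had overlapping levels in the 2 genotypes. Notch1 was 236, 192, 106 and 233 CPM in WT LECs and 261, 119 and 180 CPM in KO LECs, a log2 fold change of 0.03 with a 95% interval from -0.68 to 0.73. Dll4 was 150, 86.8 and 127 CPM in KO LECs, all within the WT range, with a log2 fold change of 0.23 and an interval from -0.72 to 1.18. Hey1 was 39.5, 72.9 and 81.4 CPM in KO LECs, also within the WT range, with a log2 fold change of 0.50 and an interval from -0.83 to 1.83. Each interval holds the changes that these libraries do not exclude, and it is not a limit of detection. On simulated counts for this comparison, 27.5% of 200 genes given a log2 change of 2 in either direction were called. These genes were drawn only from those above a minimum mean level. Notch2, Notch3, Dll1 and Heyl lay below that level in LECs, so this share does not apply to them.

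Notch3 and Jag1 were decided by 1 library in LECs. Notch3 was 0.559, 0.103 and 18.2 CPM and Jag1 was 7.82, 1.65 and 70.2 CPM in KO LEC libraries 1 to 3, so KO LEC 3 was far above the other 2 for both. Their log2 fold changes against WT LECs were 1.21 ± 2.14 and 0.44 ± 1.17, and without KO LEC 3 they were -3.02 and -2.07, with neither called. In that library the summed level of the fibroblast markers was 526.1 CPM, against 283 and 377 CPM in the other KO LECs and 590 to 1969 CPM in WT LECs. Its Pdgfrb was the lowest of all LEC libraries at 0.496 CPM, and its pericyte and smooth muscle sums, 136 and 109 CPM, were the lowest of the KO LECs. Its epithelial sum, 141 CPM, was the highest of all LEC libraries, which were otherwise at 22.0 to 91.0 CPM. The part of these other cells in its Notch3 and Jag1 was not tested. Notch2 (10.9 to 30.7 CPM), Notch4 (29.7 to 46.6 CPM) and Dll1 (0.413 to 12.6 CPM) in KO LECs overlapped with WT. Heyl was 7.40 and 8.98 CPM in KO LEC 1 and KO LEC 2 and had no read in KO LEC 3.

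**Figure D4:**
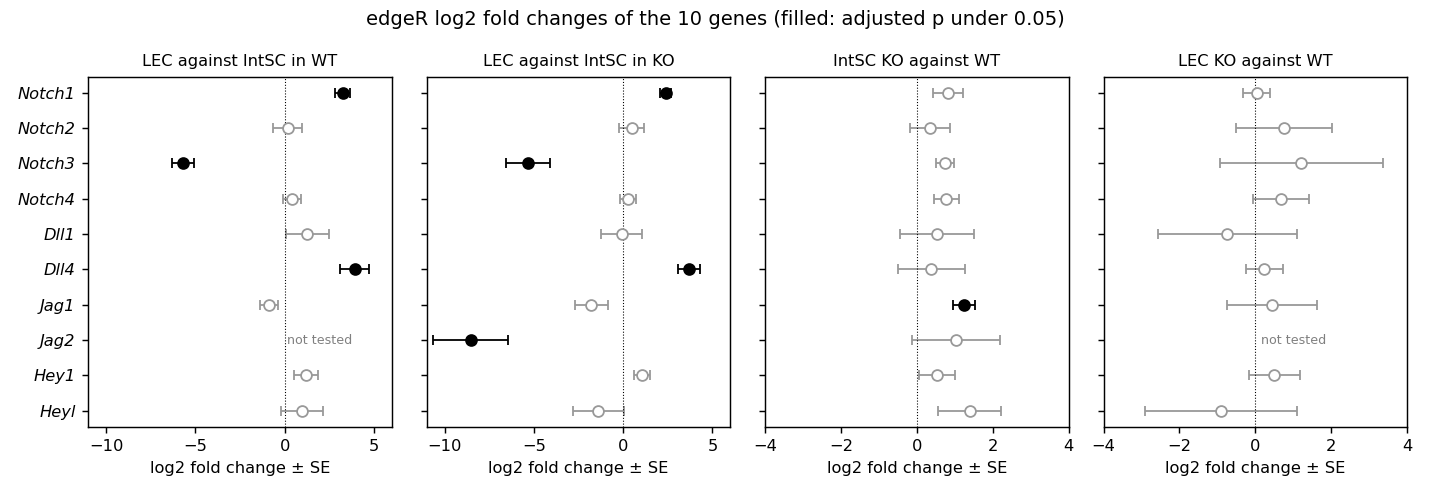
Log2 fold change ± SE of the 10 genes from edgeR in 4 comparisons, filled where the adjusted p is under 0.05. The outer axis ranges differ between the compartment panels (left pair) and the genotype panels (right pair). Notch1 and Dll4 (higher in LECs) and Notch3 (lower) are filled in both compartment panels, Jag1 alone in IntSC KO against WT and none in LEC KO against WT.

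Whether deletion acted differently on the IntSCs and the LECs was tested as an interaction, the log2 fold change of KO against WT in IntSCs minus that in LECs. None of the 10 genes was called by edgeR or had an unadjusted p under 0.05, against 1.70% called of 14015 genes, and no member was called by DESeq2. The median of all genes was 0.24, and that of the 10 genes 0.54. For Jag1, the difference was 0.88 ± 0.95 (adjusted p = 0.796), so the rise in IntSCs was not shown to differ from LECs. Without KO LEC 3 the difference was 3.37 for Jag1 (adjusted p = 0.0254) and 3.92 for Notch3 (adjusted p = 0.0320), from -0.37 ± 1.21 with it. The largest estimate, 4.69 ± 2.50 for Jag2, had an adjusted p of 0.385, and it was 1.02 without WT LEC 3, the only LEC library with a Jag2 read.

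The wider pathway was read from a list of 46 other genes, grouped by role. In WT, 15 of the 40 tested differed between LECs and IntSCs, 7 higher and 8 lower in LECs, beside 22.6% of all genes tested. On the LEC side were Lfng, the Fringe enzyme that puts sugars on Notch receptors and tunes which ligand they answer (6.10 ± 0.68, adjusted p = 1.39e-05), Dtx1, a Deltex ubiquitin ligase that binds Notch (7.44 ± 0.83, adjusted p = 1.41e-05, and 8.09 without WT IntSC 5), and Egfl7, an endothelial secreted protein (4.45 ± 0.21, adjusted p = 3.06e-09). The proteases Adam10 (1.90 ± 0.35) and Psen2 (2.37 ± 0.32) were higher in LECs as well. On the IntSC side were Dtx4 (-4.28 ± 0.47), the coactivator Maml3 (-5.86 ± 0.74) and Numbl, a relative of the Notch inhibitor Numb (-2.27 ± 0.39). All 4 of the cleavage genes called were higher in LECs, out of 10 tested, and of 3 glycosylation genes called, 2 were lower. In KO libraries 16 of 42 were called, 7 higher and 9 lower in LECs, beside 25.9% of all genes tested, of which 1162 were higher and 2140 lower. The 8 with the smallest p were Egfl7 (3.60 ± 0.30), Psen2 (3.50 ± 0.33), Dtx1 (5.88 ± 0.57), Lfng (4.18 ± 0.60), Maml3 (-5.78 ± 0.99), Adam10 (2.26 ± 0.40), Aph1b, a part of gamma-secretase (5.47 ± 1.09, and 6.89 without KO IntSC 3), and Hey2.

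Other targets and core factors gave few calls between compartments. In WT, Hes1 (0.39 ± 0.34, adjusted p = 0.481), Hey2 (-1.40 ± 1.78, adjusted p = 0.661), Nrarp (0.36 ± 0.49, adjusted p = 0.685) and Rbpj (-0.14 ± 0.45, adjusted p = 0.878) were not called between LECs and IntSCs. In KO, Nrarp (0.51 ± 0.60, adjusted p = 0.619) and Rbpj (-1.79 ± 0.96, adjusted p = 0.213) were not called, and Hes1 was lower in LECs (-0.77 ± 0.26, adjusted p = 0.0492), a call that held in 2 of 8 fits with a library left out and not with all 4 groups in one fit (adjusted p = 0.124). In the interaction, Hes1 was 1.15 ± 0.47 (adjusted p = 0.227) and Hey2 6.46 ± 2.54 (adjusted p = 0.202, and 0.0467 by DESeq2). Rbpj was 1.64 ± 0.97 (adjusted p = 0.452), and 3.94 with an adjusted p of 0.0157 without KO LEC 2. Lfng was 1.92 ± 0.95 (adjusted p = 0.341) and Nrarp -0.17 ± 0.78 (adjusted p = 0.9999).

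Hey2, the third Hey repressor, had 1 read in 1 of 3 KO LEC libraries and was 4.05, 11.1, 18.9, 20.7 and 14.7 CPM in KO IntSC libraries 1 to 5. The adjusted p for the lower level in KO LECs was 0.00599, and 0.174 with replicate number as a block. In WT IntSCs it was 0, 1.57 and 9.61 CPM at the lowest, median and highest. The KO libraries were mostly above, but the groups overlapped, and the log2 fold change on deletion was 2.30 ± 0.93 (adjusted p = 0.356). Hes1, a Hes target active in many tissues, was 562 to 2851 CPM in WT and 1598 to 3492 CPM in KO IntSCs (0.36 ± 0.31, adjusted p = 0.843). Hes5 had reads in only 2 libraries, both WT IntSC, at 1.06 and 2.11 CPM, and was not tested. Nrarp, a feedback inhibitor that Notch induces (0.69 ± 0.34, adjusted p = 0.524), Rbpj (0.10 ± 0.29, adjusted p = 0.978) and Lfng (0.15 ± 0.97, adjusted p = 0.987) were not called in IntSCs.

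None of the 43 other pathway genes tested in IntSCs was called on deletion by edgeR, 8 had an unadjusted p under 0.05, and DESeq2 called 2. Over all 12421 genes tested, edgeR called 1.47%, 1219 had an unadjusted p under 0.05, and DESeq2 called 376. The median log2 fold change of the 43 genes was -0.03. In this list 21 of the 43 estimates were above 0, while all 10 were among the 10 genes. Both sets were chosen with earlier results of these data known, so this contrast is only a description.

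In LECs, none of 36 was called by edgeR, 4 had an unadjusted p under 0.05, and DESeq2 called 2, beside 7, 837 and 309 of all genes. Lfng had the lowest p. WT LECs 1 to 4 held 274, 395, 307 and 372 CPM, and KO LECs 1 to 3 held 106, 132 and 64.9 CPM. Every KO library was below every WT library. The log2 fold change was -1.67 ± 0.32 with an adjusted p of 0.0821, and the gene was below the threshold of 0.05 with DESeq2 (2.34e-04), with no low-count filter (0.0124) and with a filter on a mean count of at least 10 (0.0489). The other 6 alternatives gave adjusted p between 0.0713 and 0.330, and the 7 fits with a library left out between 0.0691 and 0.293, none of them a call. The log2 fold change was between -1.74 and -1.63 over 9 alternatives of scaling, filter, tool and design, and between -1.91 and -1.43 with each library left out. Hes1 was 2328, 1801, 2856 and 3666 CPM in WT LECs and 1398, 1579 and 1625 CPM in KO LECs. These groups did not overlap either, with a log2 fold change of -0.72 ± 0.23 (adjusted p = 0.397), while 6.45% of all genes tested were lower in every KO LEC library than in every WT one. Rbpj was 46.1, 34.9, 19.9 and 12.8 CPM in WT and 3.07, 25.2 and 0.869 CPM in KO LECs (-1.47 ± 1.29, adjusted p = 0.9999), and Nrarp overlapped (0.93 ± 0.72, adjusted p = 0.971). Hey2 was not tested in LECs. No other pathway gene was called in the interaction by edgeR (43 tested, 6 at an unadjusted p under 0.05, DESeq2 1), beside 238 called, 2217 at an unadjusted p under 0.05 and 1023 by DESeq2 among all genes.

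**Figure D5:**
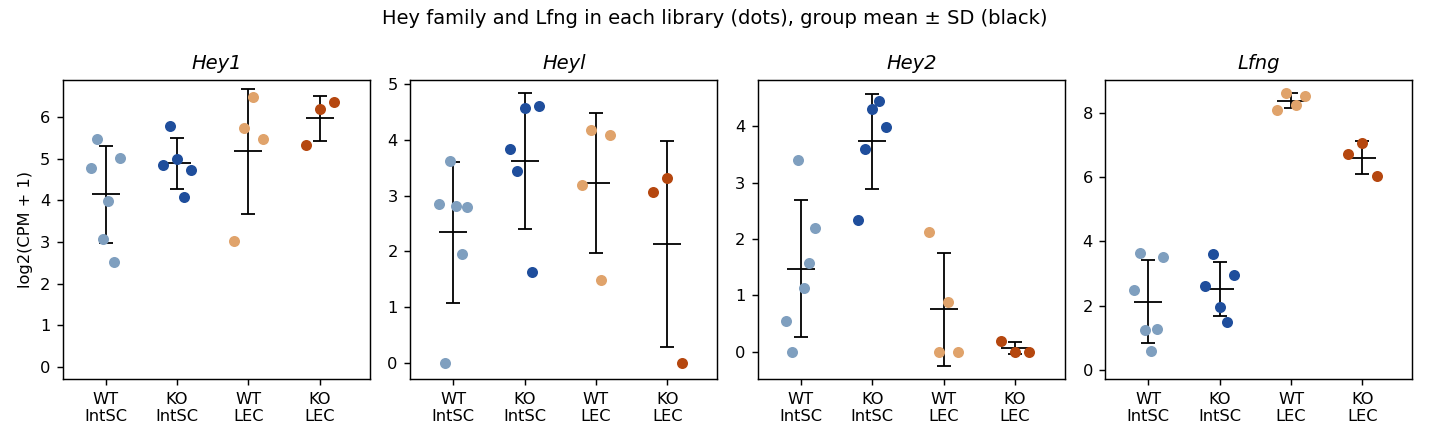
Level of Hey1, Heyl, Hey2 and Lfng, log2(CPM + 1), in each library (dots) of the 4 groups, with the mean ± SD in black. Hey1 and Heyl overlap between genotypes in both cell types. Hey2 is highest in KO IntSCs (4.05 to 20.7 CPM), and Lfng is 65 to 132 CPM in KO LECs against 274 to 395 CPM in WT LECs.

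For each of the 9 genes with a mean of at least 5 CPM, the 3 genes with the most similar profile over the 18 libraries were found by Pearson's r of log2(CPM + 1), given with Spearman's rho as a description. The libraries of a cell type share most of what sets them apart, so a high r mostly ranks genes by compartment. Notch1 was closest to Bcl6b (r = 0.96, rho = 0.83), Cs and Dtx1, Dll4 to Scarf1 (r = 0.95, rho = 0.94), N4bp3 and Ap2m1, and Notch3 to Tpm1 (r = 0.98, rho = 0.91), Loxl1 and Axl. Jag1 was closest to Hbegf (r = 0.86, rho = 0.85), Tshz3 and Mepce. For the genes that did not follow the compartments the values were lower: Notch2 with Gmnn (r = 0.75, rho = 0.83), Mpp4 and Mpzl1, Notch4 with Aatk (r = 0.79, rho = 0.84), Dock5 and Rnf40, Dll1 with Mvb12b (r = 0.80, rho = 0.74), Sptan1 and Tgoln1, Hey1 with Tecpr1 (r = 0.81, rho = 0.83), Cast and Trappc3, and Heyl with Zfp777 (r = 0.83, rho = 0.66), Foxred1 and Mllt4.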

How the data were processed

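For each library the authors deposited a table of raw counts, whole reads per gene symbol and not normalized. The submitters' processing notes name Bowtie2, edgeR and mm10, the study's methods name TopHat and Cufflinks, and the counting program and annotation are not given in the sources used here. The labels name a Lexogen Quant-Seq kit. Each table held 23282 rows, and the counts of 35 symbols that stood on more than 1 row were summed.

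Libraries were grouped and numbered by their titles. Counts were tested in R 4.3.3 with edgeR 4.0.16 (filterByExpr, TMM, robust quasi-likelihood fit, Benjamini-Hochberg over all genes tested, adjusted p under 0.05), with only the groups compared in a fit, except that the interaction used all 4. The SE of a log2 fold change comes from the F statistic, and intervals are 95% (1.96 SE). Printed CPM use 1 set of TMM factors over 18 libraries. DESeq2 1.42.0 and limma-voom (limma 3.58.1) were alternatives. The procedure was tested on simulated data.

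All 10 genes were named. Of the 46 other pathway genes, those called were named (at most the 8 with the smallest p), and Hes1, Hes5, Hey2, Nrarp, Rbpj and Lfng always. The genes and lists were chosen with earlier results of these data known. Promoters and locations are from RefSeq, with 8 and 10 genes matched by symbol. The promoters of Hey1 and Heyl are not shown.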

Additional observations from a re-analysis of the deposited data

Results flagged for a closer look

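In 33 sets of 4 to 6 libraries (each of the 10 genes and the total count, by group), 3 held a library far from the others, where chance gives 1.65. KO IntSC 4 had 18.2 CPM of Jag2, and the other 4 KO IntSC libraries had 1.23 to 4.44 CPM. WT LEC 3 had 0.750 CPM of Jag2, and the other 3 WT LEC libraries had no read, so that any read in it would have been flagged. WT LEC 2 had a total count of 7464241, and the other WT LEC libraries had 10374749 to 10549233.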

How the results depend on the processing

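The calls of Notch1, Notch3 and Dll4 between LECs and IntSCs held under all 9 alternatives and with each library left out, in WT and in KO. Whether same-numbered libraries came from the same animals is not known. Same-numbered libraries had mean correlations of their deviations from the group means of 0.0275, 0.0098, -0.0037 and 5.23e-04 in the WT compartment, IntSC, LEC and KO compartment comparisons. Libraries of other numbers had -0.0055, -0.0012, 0.0012 and -1.82e-04. In the WT compartment comparison all 4 same-numbered pairs were between 0.0221 and 0.0382. With the replicate block, 1596 genes were called between WT LECs and WT IntSCs, 3 in LEC KO against WT, 895 between KO LECs and KO IntSCs with 6 other pathway genes, and 16 in the interaction, while 0 of the 10 genes were called in IntSC KO against WT (Jag1 1.18, adjusted p = 0.126). Between KO compartments the block also ended the calls of Jag2, Hey2, Hes1, Maml3 and Adam10 (adjusted p between 0.0649 and 0.326), and limma-voom called Jag1 (-3.33, adjusted p = 0.0229) and Rbpj (-2.94, adjusted p = 0.0497). In the order IntSC, LEC and interaction, DESeq2 called 376, 309 and 1023 genes, with 2, 2 and 1 other pathway genes. Limma-voom called 12 genes in LECs and 143 in the interaction. With no filter the LEC count was 32, with 1 other pathway gene each in IntSCs and LECs, and with a mean count of at least 10 it was 20, with 1. All 4 groups in one fit gave 27 genes and 0 of the 10 in IntSCs, and 538 genes in LECs. With libraries left out, the counts of genes, of the 10 and of other pathway genes were 2233 to 2891, 3 to 3 and 13 to 16 (WT compartments), 99 to 186, 0 to 1 and 0 to 1 (IntSC), 0 to 16, 0 to 0 and 0 to 1 (LEC), 2557 to 3320, 4 to 5 and 12 to 16 (KO compartments), and 161 to 461, 0 to 2 and 0 to 2 (interaction).

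Log2 fold changes that changed sign were not called with either sign, except Notch3 in the interaction without KO LEC 3. Under limma-voom they were Notch2 between WT compartments (-0.13), Notch3 and Jag1 in LECs (-0.69 and -0.97), Nrarp between KO compartments (-0.045), and Notch3, Notch4 and Nrarp in the interaction (1.45, -0.24 and 0.31). With the replicate block they were Notch3 and Jag1 in LECs (-2.11 and -0.76) and Notch3, Notch4 and Nrarp in the interaction (1.08, -0.13 and 0.23). Notch1 in LECs was -0.034 with upper-quartile factors and -0.039 in a joint fit, and Hey1 in the interaction was -0.015 with RLE factors and with DESeq2. With each library left out, the ranges were -0.57 to 0.48 for Notch2, -0.17 to 0.67 for Notch4, -0.21 to 0.56 for Nrarp and -0.48 to 0.10 for Rbpj between WT compartments. In IntSCs they were -0.28 to 0.59 for Lfng and -0.055 to 1.49 for Jag2. In LECs they were -0.057 to 0.58 for Dll4, -0.27 to 0.27 for Notch1, -3.02 to 2.19 for Notch3 and -2.07 to 1.002 for Jag1. Between KO compartments the range was -1.12 to 0.47 for Dll1. In the interaction they were -0.40 to 0.42 for Notch4, -0.38 to 0.47 for Hey1, -0.15 to 0.61 for Dll4, -0.73 to 0.23 for Nrarp, -1.06 to 0.063 for Notch2 and -1.37 to 3.92 for Notch3. The causes were not tested.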
